A study of Mus musculus with 12 samples.

Results

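The genes described here are 40 immediate early and MAPK feedback genes. They were read in fibro/adipogenic progenitors (FAPs) cultured from mice, the mesenchymal cells of skeletal muscle that carry the PDGF receptor PDGFRα. The members were listed by symbol, and each was read from the transcript cluster that the platform annotation pairs with that symbol alone, using the brightest such cluster by its mean over the 12 arrays. All 40 of 40 were found among 19938 genes on 21789 clusters with 1 symbol, in a table of 35556 clusters. No filter on low values was applied, so every member was tested.

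The cells came from uninjured hindlimb muscle of male C57/Bl6 mice aged 8 to 12 weeks, and each biological replicate pooled cells of 2 mice. Affymetrix Mouse Gene 1.0 ST arrays were run on 6 groups of 2 arrays: pA AMO with and without PDGF-AA, 5'ss AMO with and without PDGF-AA, and control AMO with and without PDGF-AA. AMOs are antisense oligonucleotides; the pA AMO is directed at an intronic polyadenylation site of PDGFRα transcripts and the 5'ss AMO at an intronic 5' splice site of them. All groups grew for 2.5 days in serum, received 10 µM AMO for 48 hours in horse serum medium, and received it again in Opti-Mem for a further 48 hours, with PDGF-AA at a concentration the labels give as 50 uM or without it. No cells without AMO and no earlier time of PDGF-AA were analysed here. Values are RMA values on the log2 scale, so a difference of 1 is a doubling. The level of one gene's cluster cannot be set against that of another gene.

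Growth factors such as PDGF-AA activate receptor tyrosine kinases, and the RAS, RAF, MEK and ERK cascade carries the signal to the nucleus. Immediate early genes are switched on there without new protein synthesis, and FOS, JUN, EGR and MYC proteins are their best known products. Another set of targets encodes inhibitors of the same cascade: dual-specificity phosphatases remove phosphate from MAP kinases, Sprouty and Spred proteins act between receptor and RAF, and ERRFI1 restrains receptors of the EGF family.

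The regions just before the start of 4 members are shown, because values below turn on these genes and because serum response factor, itself encoded by a member, binds the CArG box. Sequences are the 250 bases before the RefSeq start on GRCm38.p6, written 5′ to 3′ on the gene's strand, and capitals mark CArG boxes. They lie at chr17:35821463-35821712 (plus strand) for Ier3, chr14:105896820-105897069 (minus strand) for Spry2, chr19:53528895-53529144 (plus strand) for Dusp5 and chr10:67537619-67537868 (plus strand) for the middle of 5 annotated starts of Egr2.
Ier3: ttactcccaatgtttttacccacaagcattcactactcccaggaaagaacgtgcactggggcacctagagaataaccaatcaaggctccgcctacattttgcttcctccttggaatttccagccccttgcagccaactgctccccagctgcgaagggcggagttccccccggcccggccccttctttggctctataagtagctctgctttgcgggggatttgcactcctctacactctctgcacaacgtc
Spry2: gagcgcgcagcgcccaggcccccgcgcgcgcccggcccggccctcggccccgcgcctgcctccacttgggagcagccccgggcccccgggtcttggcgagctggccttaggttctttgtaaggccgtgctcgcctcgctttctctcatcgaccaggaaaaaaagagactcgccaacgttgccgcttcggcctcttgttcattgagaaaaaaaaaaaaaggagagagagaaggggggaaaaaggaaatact
Dusp5: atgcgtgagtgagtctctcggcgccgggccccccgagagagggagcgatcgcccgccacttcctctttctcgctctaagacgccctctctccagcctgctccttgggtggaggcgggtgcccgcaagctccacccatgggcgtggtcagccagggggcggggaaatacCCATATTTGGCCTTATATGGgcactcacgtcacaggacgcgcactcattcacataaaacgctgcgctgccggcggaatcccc
Egr2: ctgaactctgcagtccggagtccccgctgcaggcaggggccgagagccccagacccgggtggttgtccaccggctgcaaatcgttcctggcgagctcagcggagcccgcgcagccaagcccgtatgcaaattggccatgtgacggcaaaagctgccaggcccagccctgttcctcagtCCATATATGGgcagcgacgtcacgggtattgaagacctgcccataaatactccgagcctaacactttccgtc
RefSeq windows were matched for 31 of the 40 members, in 40 windows. The CArG box, searched on both strands like the other motifs, stood in windows of 3 of these 31 members (Dusp5, Egr2 and Srf). It stood in 6 of the members' 40 windows (15%) and in 1.47% of 32851 windows of all genes. Egr2 has 5 of the 40 windows and is counted more than once among the 6. Dusp5 holds a pair of CArG boxes side by side, sharing no base, from position -82 to position -63 relative to the start. The EGR motif GCGNGGGCG stood in windows of 9 members, in 22.5% of the members' windows and in 4.7% of all windows. The CRE motif TGACGTCA stood in windows of 3 members (Dusp1, Errfi1 and Maff), in 7.5% of the members' windows and in 1.55% of all. The AP-1 motif TGANTCA stood in windows of 0 members and in 6.75% of all. No hit shared a base with a hit of another motif, and none of the 4 motifs was found in the windows of Ier3 and Spry2.

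After 48 hours of PDGF-AA no member passed the test, and the 40 genes were split between both directions. Averaged over the 3 AMOs, 18 members were higher and 22 lower with PDGF-AA, beside 50.8% of all clusters higher and 49.2% lower, with a median log2 change of -0.008, beside 0.001 over all clusters. The 3 members with the smallest p were Ier3 and Spry2, both higher, and Dusp5, lower. In limma 0 of 40 members passed at a Benjamini-Hochberg adjusted p under 0.05, beside 0% of all 21789 clusters. An unadjusted p under 0.05 was found for 3 of 40 members, beside 3.39% of all clusters. With the replicate number as a block it was found for 5 of 40 members, beside 8.02%. Again 0 members were past the adjusted threshold, beside 0.0964%. The 95% intervals of the averaged changes all lay between -0.41 (Nr4a1) and 0.48 (Maff), that is, between 1.33-fold lower and 1.39-fold higher. Of these intervals 37 held 0, 2 lay above it and 1 below it. No member had all 6 arrays with PDGF-AA above or below all 6 without it, beside 0.165% and 0.115% of all clusters.

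**Figure D1:**
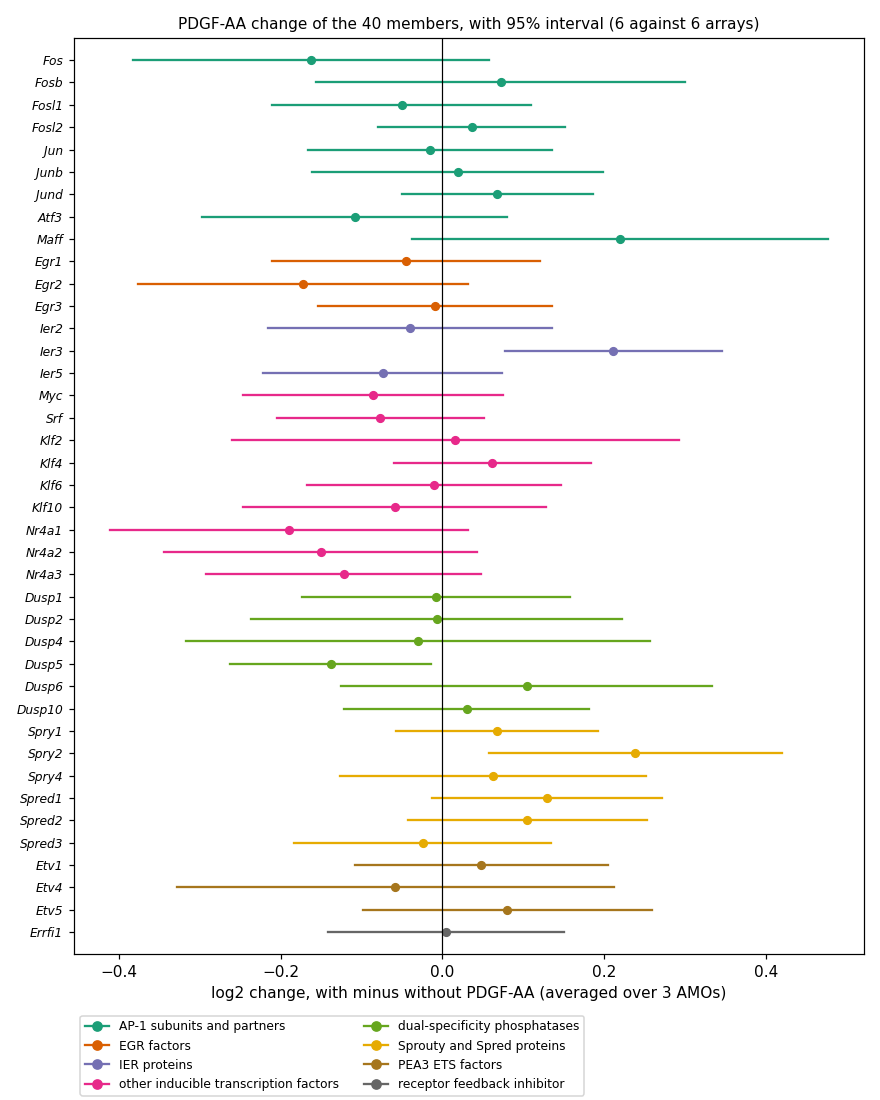
Log2 change with minus without PDGF-AA, averaged over the 3 AMOs, for each of the 40 members (points), with 95% intervals (lines) and colours for roles. The intervals of Ier3 and Spry2 lie above 0 and that of Dusp5 below it, and the other 37 hold 0.

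The IER genes are grouped by their rapid induction and not by a shared function. Ier3, which encodes a small protein linked to cell survival and ERK signalling, had 8.84 and 8.61 with pA AMO and PDGF-AA, against 8.48 and 8.47 with pA AMO alone. It had 8.79 and 8.77 in cells with 5'ss AMO and PDGF-AA, against 8.72 and 8.82 without PDGF-AA. Levels were 8.70 and 8.70 in cells with control AMO and PDGF-AA, against 8.39 and 8.25 without PDGF-AA. Arrays with PDGF-AA lay above those without it under pA and control AMO and overlapped them under 5'ss AMO, where the level was as high without PDGF-AA as with it. The averaged change was 0.21 (SE 0.061, higher in 5 of 6 replicate-matched pairs, adjusted p = 0.789 in limma). Ier2 and Ier5, which encode nuclear proteins, differed by -0.04 (SE 0.079) and -0.074 (SE 0.066).

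Of the 6 Sprouty and Spred genes 5 were higher with averaged PDGF-AA and 1 lower, with a median change of 0.087, and 0 passed. Spry2, which encodes an inhibitor of ERK activation downstream of receptors, had 7.99 and 8.15 with pA AMO and PDGF-AA, against 7.53 and 7.93 with pA AMO alone. It had 7.81 and 7.97 in cells with 5'ss AMO and PDGF-AA, against 7.73 and 7.92 without PDGF-AA. Levels were 8.12 and 8.26 in cells with control AMO and PDGF-AA, against 7.85 and 7.92 without PDGF-AA. Under pA and control AMO both arrays with PDGF-AA lay above both without it, and under 5'ss AMO they overlapped. Within replicates 1 and 2 the differences were 0.46 and 0.22 for pA AMO, 0.081 and 0.052 for 5'ss AMO, and 0.27 and 0.34 for control AMO, so all 6 were above 0. The averaged change was 0.24 (SE 0.082, adjusted p = 1 in limma).

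Spred1, which encodes a membrane-bound inhibitor of RAF activation, was the other member higher in all 6 replicate-matched pairs. It had 9.56 and 9.66 with pA AMO and PDGF-AA, against 9.41 and 9.55 with pA AMO alone. Its levels were 9.30 and 9.47 under 5'ss AMO plus PDGF-AA, against 9.22 and 9.41 under 5'ss AMO alone. It had 9.50 and 9.63 under control AMO plus PDGF-AA, against 9.40 and 9.36 under control AMO alone. The differences within replicates were small under 5'ss AMO (0.078 and 0.068), where the groups overlapped, and the averaged change was 0.13 (SE 0.064, adjusted p = 1 in limma). Being higher in 6 of 6 pairs was found for 2 members (5%), beside 1.68% of all clusters. Spry4, a further Sprouty gene and a common readout of ERK activity, had 7.45 and 7.60 with pA AMO and PDGF-AA, against 7.35 and 7.62 with pA AMO alone. Arrays gave 7.28 and 7.69 for 5'ss AMO plus PDGF-AA, against 7.32 and 7.42 for 5'ss AMO alone. They gave 7.45 and 7.60 for control AMO plus PDGF-AA, against 7.47 and 7.52 for control AMO alone. Its groups overlapped under every AMO, and the averaged change was 0.062 (SE 0.085, 95% interval -0.13 to 0.25). Spry1 and Spred2 differed by 0.068 (SE 0.056) and 0.11 (SE 0.067), and Spred3 by -0.024 (SE 0.071).

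**Figure D2:**
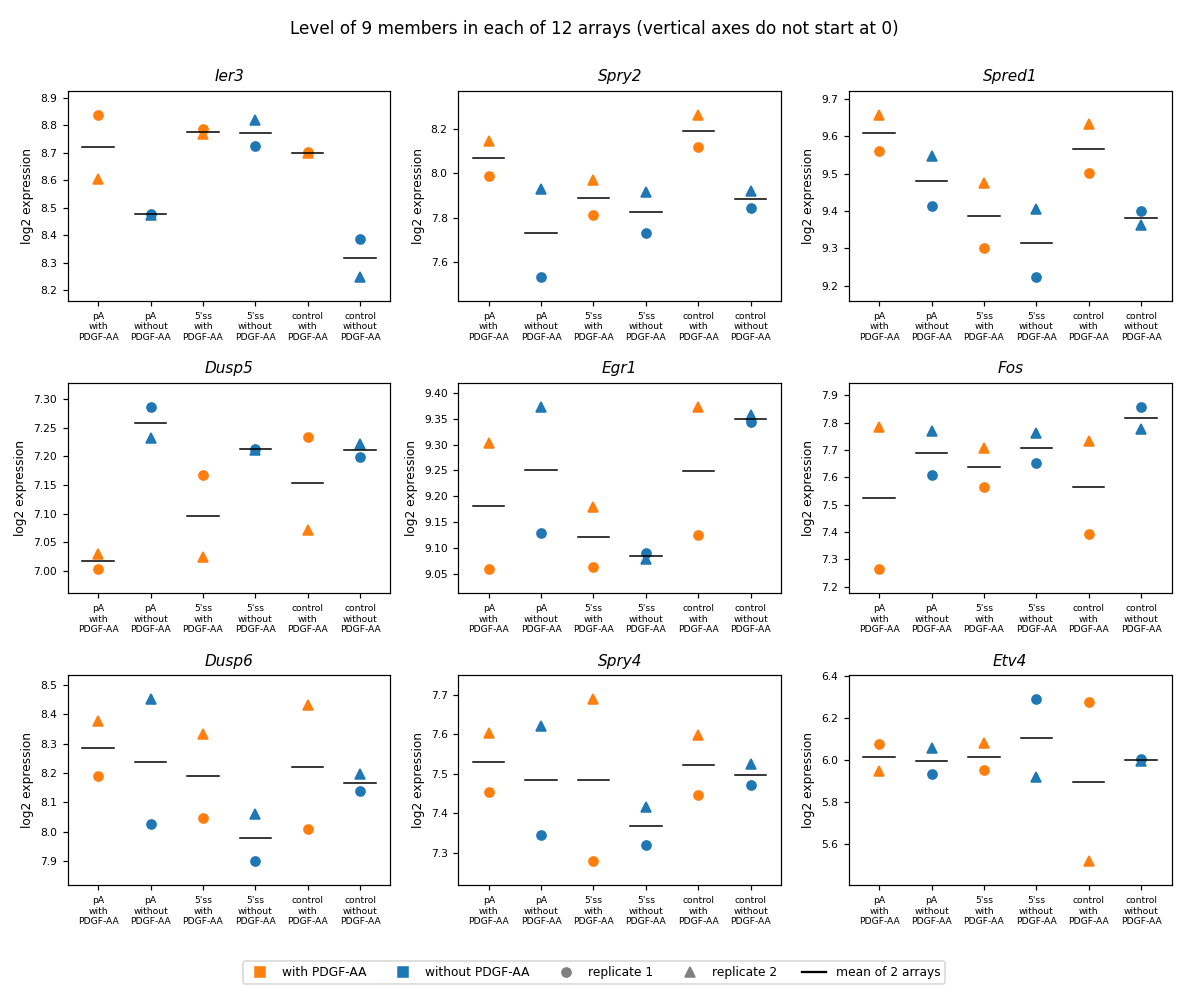
Log2 level of 9 members (vertical axes, each with its own range) in the 6 groups (horizontal axes), with replicate 1 as circles, replicate 2 as triangles and the mean of 2 arrays as a line. Ier3 lies between 8.61 and 8.84 in all arrays with PDGF-AA or 5'ss AMO and between 8.25 and 8.48 in the other 4, while for Egr1, Dusp6, Spry4 and Etv4 arrays with and without PDGF-AA are mixed.

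Of the 6 dual-specificity phosphatase genes 2 were higher and 4 lower with averaged PDGF-AA (median -0.008), and 0 passed. Dusp5, which encodes a nuclear phosphatase of ERK, had 7.003 and 7.03 with pA AMO and PDGF-AA, against 7.29 and 7.23 with pA AMO alone. It had 7.17 and 7.02 in cells with 5'ss AMO and PDGF-AA, against 7.21 and 7.21 without PDGF-AA. Levels were 7.23 and 7.07 in cells with control AMO and PDGF-AA, against 7.20 and 7.22 without PDGF-AA. Of the 6 arrays with PDGF-AA all but replicate 1 with control AMO lay below every array without it. The averaged change was -0.14 (SE 0.056, adjusted p = 1 in limma).

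Dusp6, which encodes the cytoplasmic phosphatase of ERK, had 8.19 and 8.38 with pA AMO and PDGF-AA, against 8.02 and 8.45 with pA AMO alone. Its levels were 8.05 and 8.33 under 5'ss AMO plus PDGF-AA, against 7.90 and 8.06 under 5'ss AMO alone. It had 8.01 and 8.43 under control AMO plus PDGF-AA, against 8.14 and 8.20 under control AMO alone. Replicate 2 was above replicate 1 in all 6 groups, by a mean of 0.26, and the averaged PDGF-AA change was 0.10 (SE 0.103, 95% interval -0.13 to 0.33). Dusp1 and Dusp10, whose products act on stress-activated MAP kinases, differed by -0.008 (SE 0.075) and 0.03 (SE 0.068). Dusp2 and Dusp4, which encode nuclear phosphatases, differed by -0.007 (SE 0.103) and -0.03 (SE 0.129). Errfi1 differed by 0.004 (SE 0.066).

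AP-1 is a dimer, often of a JUN protein with a FOS or ATF family protein. Of the 9 genes of AP-1 subunits and partners 5 were higher and 4 lower with averaged PDGF-AA (median 0.019), and 0 passed. Fos had 7.26 and 7.79 with pA AMO and PDGF-AA, against 7.61 and 7.77 with pA AMO alone. Arrays gave 7.57 and 7.71 for 5'ss AMO plus PDGF-AA, against 7.65 and 7.76 for 5'ss AMO alone. They gave 7.39 and 7.74 for control AMO plus PDGF-AA, against 7.86 and 7.78 for control AMO alone. Only under control AMO did both arrays with PDGF-AA lie below both without it. Fos was lower in 5 of 6 replicate-matched pairs, most in replicate 1 with control and pA AMO (-0.47 and -0.34), and the averaged change was -0.16 (SE 0.099, 95% interval -0.38 to 0.057). Jun and Jund ran from 9.60 to 9.95 and from 9.35 to 9.50 over the 12 arrays and differed by -0.015 (SE 0.068) and 0.068 (SE 0.053). Jund had the smallest range of the 40 members (0.16) and Maff, which encodes a small MAF factor, the largest (0.90), beside a median of 0.46 over the members and 0.46 over all clusters. The averaged change of Maff was 0.22 (SE 0.115), with 0.73 in replicate 2 of control AMO, 0.50 in replicate 1 of pA AMO and between -0.053 and 0.073 in the other 4 pairs. Fosb, Fosl1, Fosl2, Junb and Atf3 differed by between -0.11 and 0.072.

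The 3 genes of EGR zinc finger factors were all below 0 (median -0.045), and 0 passed. Egr1 had 9.06 and 9.30 with pA AMO and PDGF-AA, against 9.13 and 9.37 with pA AMO alone. Arrays gave 9.06 and 9.18 for 5'ss AMO plus PDGF-AA, against 9.09 and 9.08 for 5'ss AMO alone. They gave 9.13 and 9.37 for control AMO plus PDGF-AA, against 9.34 and 9.36 for control AMO alone. Arrays with and without PDGF-AA overlapped under every AMO, and the averaged change was -0.045 (SE 0.074, 95% interval -0.21 to 0.12). Egr2, which also acts in nerve myelination, had 7.22 and 7.42 with pA AMO and PDGF-AA, against 7.26 and 7.62 with pA AMO alone. It had 7.10 and 7.45 in cells with 5'ss AMO and PDGF-AA, against 7.33 and 7.55 without PDGF-AA. Levels were 7.34 and 7.53 in cells with control AMO and PDGF-AA, against 7.65 and 7.68 without PDGF-AA. Egr2 was lower within replicates in 6 of 6 pairs, its groups overlapped under pA and 5'ss AMO, and the averaged change was -0.17 (SE 0.092, adjusted p = 1 in limma). Myc, at -0.086 (SE 0.072), was the other member lower in all 6 pairs, and such a pattern was found for 5% of the members and 2.3% of all clusters. Egr3 differed by -0.009 (SE 0.065).

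Of the 9 other inducible transcription factor genes 7 were lower and 2 higher with averaged PDGF-AA (median -0.077), and 0 passed. The NR4A orphan nuclear receptor genes Nr4a1, Nr4a2 and Nr4a3 were at -0.19 (SE 0.1), -0.15 (SE 0.087) and -0.12 (SE 0.077). Srf, which encodes the factor that binds CArG boxes, was at -0.077 (SE 0.058). The Krüppel-like factor genes Klf2, Klf4, Klf6 and Klf10 lay between -0.059 and 0.061. Klf2 was lower in replicate 2 than in replicate 1 in all 6 groups, by a mean of 0.355, the largest replicate difference of the 40 genes, and its PDGF-AA change was 0.016 (SE 0.124).

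The PEA3 genes Etv1, Etv4 and Etv5 encode ETS factors whose transcripts track ERK activity in many tissues, and 2 were higher and 1 lower with averaged PDGF-AA. Etv4 had 6.07 and 5.95 with pA AMO and PDGF-AA, against 5.93 and 6.05 with pA AMO alone. Its levels were 5.95 and 6.08 under 5'ss AMO plus PDGF-AA, against 6.29 and 5.92 under 5'ss AMO alone. It had 6.28 and 5.52 under control AMO plus PDGF-AA, against 6.002 and 5.99 under control AMO alone. The replicates with control AMO and PDGF-AA were further apart than any 2 groups' means, and the averaged change was -0.058 (SE 0.122, 95% interval -0.33 to 0.21). Etv1 and Etv5 have 2 clusters each. In the array's numbering, the 10 named clusters nearest to the brighter one, which was used here, are all on chromosome 13 for Etv1, a gene of chromosome 12, and on chromosome 10 for Etv5, a gene of chromosome 16. The dimmer cluster has 10 of 10 neighbours on the gene's own chromosome. For Etv1 the brighter cluster differed by 0.048 (SE 0.07) and the dimmer one by 0.095 (SE 0.089). For Etv5 the brighter cluster differed by 0.08 (SE 0.08) and the dimmer one by -0.059 (SE 0.104), in the opposite direction. Which cluster measures the gene was not tested.

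Within single AMOs the comparisons rested on 2 arrays against 2. With pA AMO, both arrays with PDGF-AA lay above both without it for 10 members (25%) and below for 8 (20%), beside 11.4% and 12.3% of all clusters. With 5'ss AMO these were 2 (5%) and 4 (10%), beside 9.13% and 10.5%, and with control AMO 8 (20%) and 5 (12.5%), beside 17.5% and 13.6%. Under 5'ss and control AMO the shares lay near or below those of all clusters. In limma 0 members passed in each of the 3, beside 0% of all clusters. At an unadjusted p under 0.05 there were 4, 0 and 1 of the 40 members with pA, 5'ss and control AMO, beside 2.37%, 1.64% and 4.81% of all clusters. With the block there were 4, 0 and 5 of the 40, beside 5.9%, 4.53% and 12.7%. All 10 myogenic markers were lower with PDGF-AA under pA AMO (median -0.49, against 0.21 under 5'ss AMO and 0.067 under control AMO). By group means, all 6 adipocyte markers were higher with PDGF-AA under 5'ss AMO (median 1.10, against -0.40 under pA AMO and -0.49 under control AMO). Under 5'ss AMO this came from replicate 1, with changes from 0.33 (Lpl) to 3.29 (Adipoq). Within replicate 2 the adipocyte changes ran from -0.34 (Adipoq) to 0.084 (Pparg), and only Pparg was above 0. In limma 0 markers of both lists passed, and their part in the members' changes was not tested.

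With pA AMO the smallest p belonged to Dusp5 (-0.24, SE 0.097) and to Atf3, which encodes a stress-induced partner of JUN (-0.36, SE 0.147), both at an adjusted p of 1 in limma. Atf3 had 8.71 and 9.08 with pA AMO and PDGF-AA, against 9.27 and 9.24 with pA AMO alone. Its levels were 9.08 and 9.05 under 5'ss AMO plus PDGF-AA, against 9.08 and 9.15 under 5'ss AMO alone. It had 8.81 and 9.21 under control AMO plus PDGF-AA, against 8.89 and 8.95 under control AMO alone. Under pA and 5'ss AMO the arrays with PDGF-AA lay below those without it, and under control AMO the arrays overlapped. With 5'ss AMO the smallest p belonged to Klf4, which encodes a factor of growth arrest and stemness (0.17, SE 0.095), and to Nr4a1 (-0.26, SE 0.172). Klf4 had 9.33 and 9.25 with pA AMO and PDGF-AA, against 9.36 and 9.31 with pA AMO alone. Its levels were 9.33 and 9.32 under 5'ss AMO plus PDGF-AA, against 9.17 and 9.15 under 5'ss AMO alone. It had 9.22 and 9.39 under control AMO plus PDGF-AA, against 9.23 and 9.25 under control AMO alone. Under 5'ss AMO both Klf4 arrays with PDGF-AA lay above both without it, and under the other AMOs they overlapped. Nr4a1 had 7.87 and 7.86 with pA AMO and PDGF-AA, against 7.76 and 8.08 with pA AMO alone. It had 7.82 and 8.21 in cells with 5'ss AMO and PDGF-AA, against 8.12 and 8.42 without PDGF-AA. Levels were 7.96 and 7.80 in cells with control AMO and PDGF-AA, against 8.29 and 7.98 without PDGF-AA. Of the 3 AMOs, Nr4a1 arrays did not overlap only under control AMO, where both with PDGF-AA were the lower. The changes of Atf3 under pA AMO and Nr4a1 under 5'ss AMO each depended on single arrays: Atf3 was at -0.18 without replicate 1 of the PDGF-AA group, and Nr4a1 ran from -0.45 to -0.064 as each array was left out, past 1.5 times for each of the 4 in that comparison. With control AMO the smallest p belonged to Ier3 (0.38, SE 0.105, adjusted p = 0.754 in limma) and Spry2 (0.31, SE 0.141, adjusted p = 0.984).

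**Figure D3:**
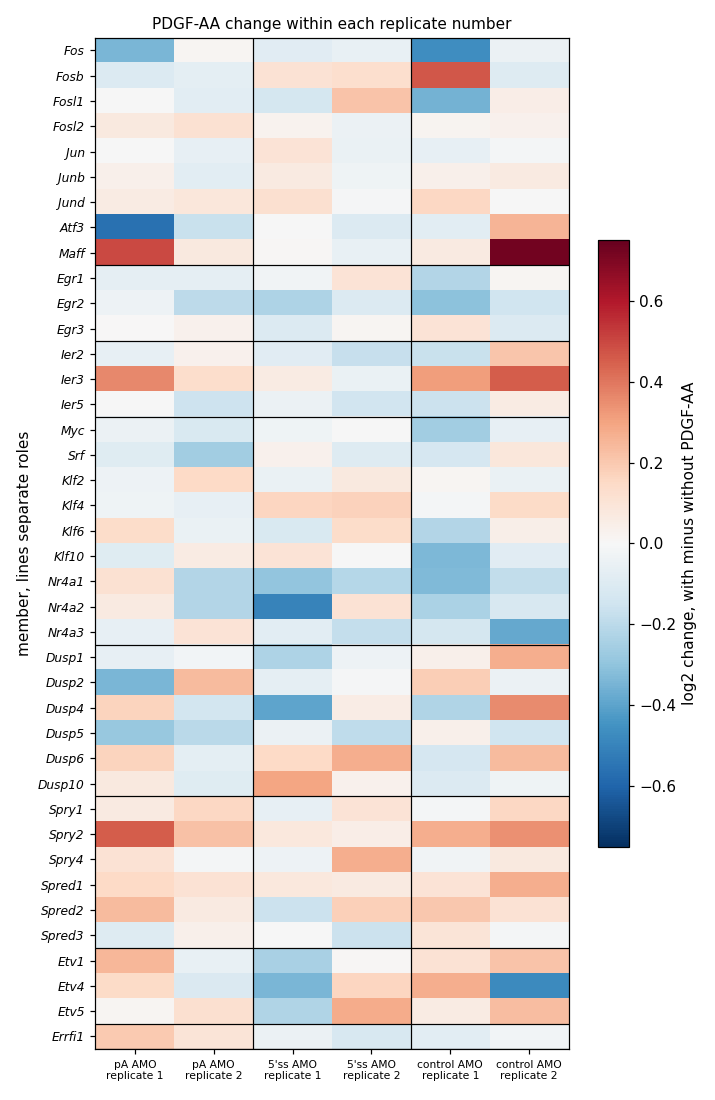
Log2 change with minus without PDGF-AA for the 40 members (rows, grouped by role) in each AMO and replicate number (columns), with red higher and blue lower with PDGF-AA. Spry2 and Spred1 are above 0 in all 6 columns and Egr2 and Myc below 0 in all 6.

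The PDGF-AA changes were also compared between AMOs, and 0 of 40 members passed in each of the 3 differences in limma, beside 0% of all clusters. Unadjusted p lay under 0.05 for 0 members in pA against control AMO (beside 2.59% of all clusters), 1 in 5'ss against control AMO (2.95%) and 0 in pA against 5'ss AMO (1.92%). With the block there were 1, 1 and 0 members, beside 8.55%, 7.94% and 5.31%. The change of Ier3 was 0.005 under 5'ss AMO and 0.38 under control AMO, a difference of -0.38 (SE 0.148, adjusted p = 1 in limma). Its change with pA AMO was 0.25, above that with 5'ss AMO by 0.24 (SE 0.148), or by 0.13 without replicate 1 of pA AMO with PDGF-AA. For pA minus control AMO the smallest p belonged to Atf3 (-0.45, SE 0.208) and Nr4a3 (0.28, SE 0.187). Nr4a3, a nuclear receptor gene that lay in the dimmest 40 percent of clusters, had 5.31 and 5.37 with pA AMO and PDGF-AA, against 5.38 and 5.27 with pA AMO alone. Arrays gave 5.41 and 5.28 for 5'ss AMO plus PDGF-AA, against 5.48 and 5.47 for 5'ss AMO alone. They gave 5.31 and 4.90 for control AMO plus PDGF-AA, against 5.44 and 5.28 for control AMO alone. The lowest of these 12 values is replicate 2 of control AMO with PDGF-AA. Without that array the difference was 0.073 for Nr4a3 and -0.26 for Atf3. Without replicate 1 of the same group it was 0.48 for Nr4a3, and without replicate 1 of pA AMO with PDGF-AA it was -0.27 for Atf3. For 5'ss minus control AMO the next after Ier3 was Etv1 (-0.28, SE 0.172, brighter cluster), and for pA minus 5'ss AMO it was Klf4 (-0.21, SE 0.134). The dimmer cluster of Etv1 had PDGF-AA changes of 0.30 under control AMO, 0.11 under pA AMO and -0.13 under 5'ss AMO. The brighter one had 8.06 and 7.97 with pA AMO and PDGF-AA, against 7.81 and 8.02 with pA AMO alone. Its levels were 7.59 and 7.90 under 5'ss AMO plus PDGF-AA, against 7.84 and 7.89 under 5'ss AMO alone. It had 7.91 and 7.99 under control AMO plus PDGF-AA, against 7.80 and 7.78 under control AMO alone. Replicate 1 of 5'ss AMO with PDGF-AA held its lowest value; adipocyte markers averaged 9.82 in that array, the highest of the 12, and their part in this value was not tested. The Etv1 difference was -0.13 without that array and -0.43 without replicate 2 of its group. The same differences had a median of 1.62 for adipocyte markers in 5'ss minus control AMO and -1.50 in pA minus 5'ss AMO, and of -0.54 for myogenic markers in pA minus control AMO.

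The AMOs were then compared with each other over both PDGF-AA conditions, 4 arrays against 4. Between 5'ss and control AMO, Ier3 was higher with 5'ss AMO by 0.27 (SE 0.074, adjusted p = 0.92 in limma), and the 4 arrays with 5'ss AMO (8.72 to 8.82) lay above the 4 with control AMO (8.25 to 8.70). With PDGF-AA the difference was 0.076 (SE 0.105, adjusted p = 0.918 in limma), and without PDGF-AA it was 0.46 (SE 0.105, adjusted p = 1). Fosl2, which encodes the AP-1 subunit FRA2, was the other member without overlap. It had 10.04 and 9.91 with 5'ss AMO and PDGF-AA and 10.02 and 9.95 with 5'ss AMO alone, against 9.87 and 9.87 with control AMO and PDGF-AA and 9.84 and 9.83 with control AMO alone. Its difference was 0.13 (SE 0.064). Egr1 differed by -0.20 (SE 0.091, adjusted p = 0.995 in limma), and 3 of the 4 arrays with control AMO lay above all 4 with 5'ss AMO. Higher without overlap were 2 members (5%), beside 1.26% of all clusters, and lower 0, beside 1.71%. In limma 0 members passed, beside 0%, and 1 of 40 had an unadjusted p under 0.05, beside 4.8%. With the block these were 8 of 40, beside 12.4%, with 0 past the adjusted threshold, beside 0.0138%.

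Between pA and 5'ss AMO, Myc, which encodes a growth-promoting transcription factor, had 8.93 and 8.95 with pA AMO and PDGF-AA, against 9.18 and 9.34 with 5'ss AMO and PDGF-AA. Without PDGF-AA it had 8.98 and 9.07 under pA AMO, against 9.22 and 9.34 under 5'ss AMO. All 4 arrays with pA AMO lay below all 4 with 5'ss AMO, and those with control AMO spanned both, at 8.85 and 9.19 with PDGF-AA and 9.11 and 9.25 without. The difference was -0.29 (SE 0.088, adjusted p = 1 in limma). Fosl2 was lower without overlap as well (-0.15, SE 0.064), with 9.85 and 9.90 with pA AMO and PDGF-AA and 9.78 and 9.79 with pA AMO alone. Spred1 differed by 0.19 (SE 0.078). Lower without overlap were 2 members (5%), beside 1.65% of all clusters, and higher 0, beside 0.996%. In limma 0 members passed, beside 0%, and 4 of 40 had an unadjusted p under 0.05, beside 3.47%. With the block these were 6 of 40, beside 8.51%, with 0 past the adjusted threshold, beside 0.0275%.

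Between pA and control AMO all members overlapped, beside 0.945% of all clusters higher and 1.71% lower without overlap. In limma 0 members passed, beside 0%, and 0 of 40 had an unadjusted p under 0.05, beside 3.25% (1 of 40 with the block, beside 9%). The smallest p belonged to Egr2 (-0.17, SE 0.112) and Maff (0.20, SE 0.141). Maff had 7.64 and 7.32 with pA AMO and PDGF-AA and 7.14 and 7.24 with pA AMO alone, against 7.20 and 7.46 with control AMO and PDGF-AA and 7.14 and 6.74 with control AMO alone. The Egr2 difference was -0.082 and -0.26 as replicates 1 and 2 of pA AMO without PDGF-AA were left out in turn. The Maff difference was 0.12 without replicate 1 of pA AMO with PDGF-AA, and 0.30 and 0.098 as replicates 1 and 2 of control AMO without PDGF-AA were left out in turn. Beside these AMO comparisons, all 10 myogenic markers were higher in pA than in 5'ss AMO (median 0.20), and the median of the adipocyte markers was 0.54 in 5'ss against control AMO and -0.60 in pA against 5'ss AMO. Their part was not tested. The AMO comparisons share arrays with each other and with the PDGF-AA comparisons.

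**Figure D4:**
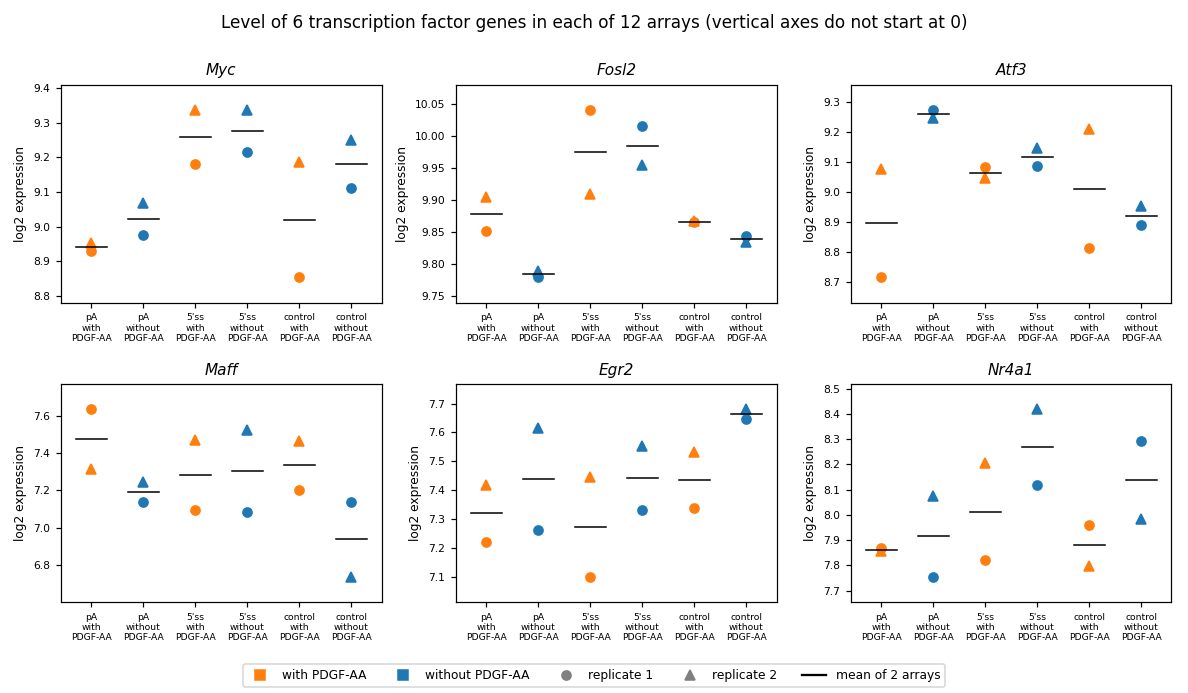
Log2 level of 6 transcription factor genes (vertical axes, each with its own range) in the 6 groups (horizontal axes), with replicate 1 as circles, replicate 2 as triangles and the mean of 2 arrays as a line. The 4 arrays of Myc and of Fosl2 with pA AMO lie below all 4 with 5'ss AMO.

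For most members the replicate numbers differed by more than the averaged PDGF-AA change. The absolute difference between replicates 2 and 1, averaged over the 6 groups, had a median of 0.115 over the members, and the absolute averaged PDGF-AA change one of 0.065. The replicate difference was the larger for 25 of 40 members (62.5%), beside 77.3% of all clusters. Replicate 2 was higher in 6 of 6 groups for 8 members (20%, beside 17% of all clusters): Jun, Myc, Egr2, Klf10, Dusp6, Spry2, Spry4 and Errfi1. It was lower in 6 of 6 for 3 members (7.5%, beside 14%): Egr3, Klf2 and Spred3. Adipocyte markers were higher in replicate 2 as well, by a mean of 1.36 for Cd36, 1.18 for Fabp4 and 1.10 for Adipoq (each in 5 of 6 groups) and 0.74 for Pparg (6 of 6). Myogenic markers were lower in replicate 2 by their means over the 6 groups, from -0.61 (Acta1) to -0.165 (Mymk). Pax7 (-0.36), Myf5 (-0.34) and Ckm (-0.39) were lower in 6 of 6 groups, but Des, Mymk and Chrna1 in 4. Under 5'ss AMO without PDGF-AA most were higher in replicate 2, with Myh3 at 1.13 and Mymk at 0.76, while Pax7, Myf5 and Ckm were lower. The part of the adipocyte and myogenic markers in the members' replicate differences was not tested.

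**Figure D5:**
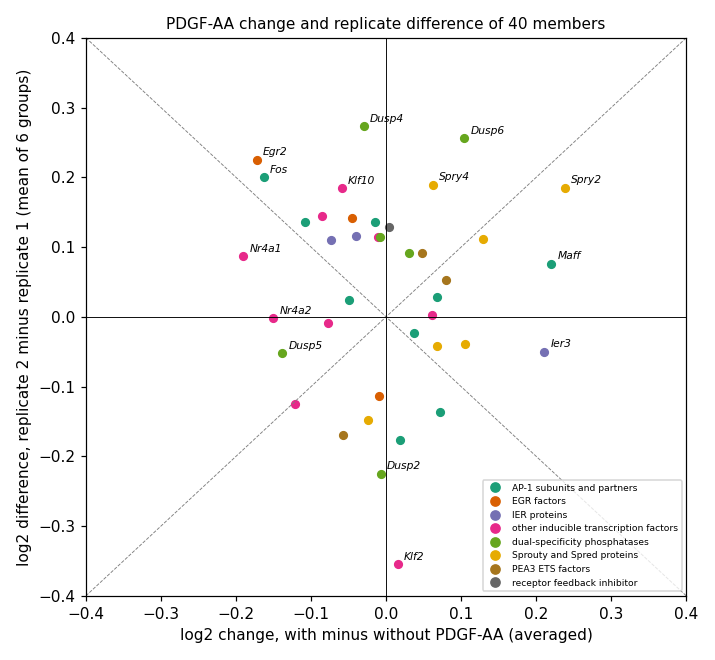
Averaged PDGF-AA change (horizontal) and mean difference between replicates 2 and 1 (vertical) of the 40 members, both on the log2 scale, coloured by role. Points above or below both dashed diagonals, 25 of 40, differ more between replicates than with PDGF-AA, and Ier3, Maff, Spry2 and Nr4a1 are among those that do not.

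Other genes of the pathway were read from 2 further lists. Of the MAPK cascade genes from adaptors to kinases 21 were measured, and 7 were higher and 14 lower with averaged PDGF-AA (median -0.02). The smallest p there belonged to Map2k1, which encodes the ERK kinase MEK1, at 0.12 (SE 0.056), and to the scaffold gene Ksr1, at -0.14 (SE 0.075). Of other genes induced by growth factors 21 were measured, 7 higher and 14 lower (median -0.056). Bhlhe40, which encodes a clock-related repressor, was at 0.24 (SE 0.056, adjusted p = 0.531 in limma) and the serum-induced kinase gene Sgk1 at -0.20 (SE 0.055, adjusted p = 0.789). They had the smallest p of that list. All arrays with PDGF-AA lay above all those without it for Bhlhe40 and below for Sgk1, beside 0.165% and 0.115% of all clusters. No other gene of the 2 lists was without overlap in this comparison. In both lists 0 genes passed. At an unadjusted p under 0.05 there were 0 of 21 and 4 of 21, beside 3.39% of all clusters. With the block there were 2 of 21 and 4 of 21, beside 8.02%. The 7 measured heat shock and stress genes had a median of -0.011, with Hspb1 at -0.19 (SE 0.074) and Hspe1 at -0.15 (SE 0.065). Hspb1 and Hspe1 have 2 clusters each, and the brighter one was used. For Hspb1, a gene of chromosome 5, it is numbered between the clusters of Klf6 and Rasa1, genes of chromosome 13. For Hspe1, a gene of chromosome 1, it is numbered between those of Egr1 and Pdgfrb, genes of chromosome 18. Which cluster measures these genes was not tested.

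Marker genes of FAPs and of other cells that muscle cultures can hold were read over the arrays. Since levels of different clusters cannot be compared, these values do not show which cells were present, and only differences between arrays are used. The mean level of 9 FAP markers per array ran from 11.32 to 11.50 with PDGF-AA and from 11.34 to 11.54 without it. Pdgfra, at whose transcripts the pA and 5'ss AMOs are directed, ran from 12.72 to 12.92 over the 12 arrays. All its arrays with 5'ss AMO (12.84 to 12.92) lay above all those with pA or control AMO (12.72 to 12.81). Such a lack of overlap was found for 1.26% of clusters (5'ss above control AMO) and 1.65% (pA below 5'ss AMO). In both comparisons 0 FAP markers passed in limma. The means of 6 leukocyte markers ran from 5.51 to 5.75 with PDGF-AA and from 5.59 to 5.75 without it, and those of 5 endothelial markers from 6.21 to 6.43 and from 6.19 to 6.41. The means of these 3 lists varied little between arrays, while some single markers in them varied more. Over the 12 arrays Pi16 ran from 6.46 to 7.76 and Dpt from 10.71 to 11.40. Lyz2 ran from 5.86 to 7.48 and Tek from 8.51 to 9.26. The mean of 10 myogenic markers ran from 7.04 to 7.54 with PDGF-AA and from 6.78 to 7.94 without it. The mean of 6 adipocyte markers varied most, from 7.24 to 9.82 with PDGF-AA and from 7.75 to 9.19 without it. The part of these cells in the members' values was not tested. The arrays hold bulk RNA, in which fewer cells of a type and less RNA per cell cannot be told apart.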

How the data were processed

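Expression was measured on 12 Affymetrix Mouse Gene 1.0 ST arrays in 6 groups of 2. The authors deposited 1 log2 expression value per cluster and array. The submitters' processing notes name RMA and Affymetrix Expression Console, and versions are not given in the sources used here. Scanner files were not used here. The number of arrays limits the precision, and p-values measure the spread between replicates that each pooled 2 mice. Except with the replicate block, this spread includes any shift shared by arrays of the same replicate number. Clusters with several symbols (1621) or not listed by the platform annotation (12146) were left out of the main test.

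With limma 3.58.1 in R 4.3.3, 1 mean per group was estimated from the 12 arrays together (6 residual degrees of freedom), with Benjamini-Hochberg adjustment over 21789 clusters and a threshold of 0.05, after a test on simulated data. SEs and 95% intervals are those of this fit. The members, roles, lists and comparisons were chosen with earlier results of these data known. Values per array are given for the 2 members with the smallest p in each of the 10 comparisons described and for Egr1, Fos, Dusp6, Spry4 and Etv4; Fosl2 was added after its values were seen.

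Same-numbered replicates deviated together from their group means (correlations of 0.2 to 0.61, above 0.1 in 15 of 15 pairs of groups). Each of the 12 arrays correlated best with an array of its own replicate number, and 0 of 12 with the other array of its own group. By these values, and by no label, the numbers pair the samples. The main fit, which gave the SEs, intervals and adjusted p printed for single genes, does not use this pairing. Alternatives were the replicate block (5 residual degrees of freedom), leaving out dim clusters (log2 mean up to 5.516), testing all 35556 clusters, array weights, a trended and robust prior, centring arrays on their medians, quantile normalization once more, the arrays of the groups compared alone, the mean of a gene's clusters, and leaving out each array in turn.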

Additional observations from a re-analysis of the deposited data

How the results depend on the processing

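Under 8 alternatives and without each of the 12 arrays in turn, 0 members passed in each of the 16 comparisons; 40 were tested, and 39 where dim clusters were left out, which drops Nr4a3. The averaged change of Ier3 ran from 0.17 to 0.25 (adjusted p 0.246 to 1) and that of Spry2 from 0.17 to 0.30 (adjusted p 0.169 to 1). Without single arrays the averaged change of Fos ran from -0.25 to -0.076, that of Dusp6 from 0.032 to 0.18, that of Egr1 from -0.086 to -0.004, that of Spry4 from -0.006 to 0.13 and that of Etv4 from -0.19 to 0.068. Of the named changes, 2 that lay within their standard error of 0 turned their sign: Etv4 was at 0.004 when replicate 1 of the 5'ss AMO group lacking PDGF-AA was left out and at 0.068 without replicate 2 of control AMO with PDGF-AA, and Spry4 at -0.006 without replicate 2 of 5'ss AMO with PDGF-AA. With the mean of both clusters of a gene the averaged change was 0.071 for Etv1, 0.011 for Etv5 and 0.13 for Spred2. All clusters past the threshold numbered 0 in every comparison as reported. With the replicate block, which changed no call of a member, they numbered 21 for averaged PDGF-AA. For 5'ss against control AMO they then numbered 3 averaged over PDGF-AA, 1 without it and 22 with it, and for pA against 5'ss AMO 6, 1 and 3. With trend and robust moderation they numbered 39 for averaged PDGF-AA, 13 for PDGF-AA with control AMO, 7 for 5'ss against control AMO and 2 for pA against 5'ss AMO (both averaged over PDGF-AA), and 6 for 5'ss against control AMO in the presence of PDGF-AA. The last comparison gave 1 above the dim mark, 5 after repeated quantile normalization and 1 after median centring. It gave 0 to 1 without single arrays, as did 5'ss against control AMO averaged over PDGF-AA, each 1 without either array of pA AMO without PDGF-AA. The members' median difference in PDGF-AA change between pA and control AMO was 0.002, against 0.075 after median centring. Without single arrays it ran from -0.066 to 0.058, the lowest without replicate 1 of pA AMO without PDGF-AA. The median for PDGF-AA with pA AMO ran from -0.045 to 0.05 (highest without replicate 2 of pA AMO without PDGF-AA), that with control AMO from -0.037 to 0.031 (lowest without replicate 2 of control AMO with PDGF-AA), and that for pA minus 5'ss AMO from -0.042 to 0.062 (lowest without replicate 1 of 5'ss AMO with PDGF-AA). The causes were not tested.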

Other observations

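Replicate 1 of 5'ss AMO with PDGF-AA held the lowest value of 8 of the 40 members (20%, beside 8.23% of all clusters): Egr2, Nr4a2, Dusp1, Dusp4, Spry4, Errfi1, and Etv1 and Etv5 by their brighter clusters. Adipocyte markers averaged 9.82 in that array, the highest of the 12, and 8.81 in replicate 2 of its group. Replicate 2 of the 5'ss AMO group lacking PDGF-AA held the highest value of 6 members (15%, beside 12.7% of all clusters): Jun, Jund, Ier5, Myc, Nr4a1 and Errfi1. Replicate 1 of control AMO with PDGF-AA held the lowest value of 5 members (12.5%, beside 19.2% of all clusters) and the highest of 5 (12.5%, beside 19.8%). Whether these go together was not tested.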
